A study of Mus musculus with 11 samples.

Results

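The 11 libraries of a series on the main olfactory epithelium (MOE) parted into a high-Meg3 set of 5 and a low-Meg3 set of the other 6. The high-Meg3 set held wild type replicate 3, replicates 1 and 2 of the heterozygous and replicates 3 and 4 of the homozygous mice. The low-Meg3 set held wild type replicates 1 and 2, replicates 3 and 4 of the heterozygous and replicates 1 and 2 of the homozygous mice. The sets were chosen by measured values of these same libraries, namely the first principal component and the levels of the noncoding RNAs Meg3 and Neat1, so each difference in a gene or gene list between the sets is given here as a description, with no test. Total counts, which the choice did not use, are compared with a test at the end. No label names the sets, and nothing in the labels gives a dissection, litter, date or sequencing run that would separate them.

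The series asked what is lost when the Taar2 to Taar9 cluster is deleted, whose trace amine-associated receptors serve olfaction beside the odorant receptors. Wild type mice (3 libraries) carried the cluster on both chromosomes, heterozygous mice (4) on 1 and homozygous mice (4) on neither, and no other allele or agent is named for any group. RNA of the whole MOE was selected for polyA tails and sequenced with a directional kit, and reads were counted per gene. The labels give the strain as C57BL/6 and the mice as newborn, whereas the reporting summary of the study describes older mice of a background mixed with 129 for this deletion, and this was not settled. Total counts lay between 11559031 and 14632525 in the high-Meg3 set and between 9239866 and 12221624 in the low-Meg3 set. Counts summed over 14 olfactory Taar genes were 1 to 3 in the homozygous libraries of both sets and 31 to 119 in the others. Omp, a marker of mature olfactory sensory neurons (OSNs), lay between 346 and 737 CPM (counts scaled to a common library total) in all libraries.

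The MOE renews its OSNs from basal stem cells throughout life, and it also holds sustentacular support cells, Bowman's glands that secrete mucus, and respiratory epithelium with motile cilia at its border. Long noncoding RNAs such as Meg3, Neat1 and Miat stay mostly in the nucleus. Neat1 builds the paraspeckles, and Malat1 and the splicing proteins gather in nuclear speckles. Transcripts that keep an intron are often also held in the nucleus, whereas most mature messenger RNA is exported to the cytoplasm.

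Meg3, an imprinted RNA transcribed from the maternal chromosome, was one of the values that chose the sets. Its level in the high-Meg3 set was 1212 CPM in wild type replicate 3, 1326 and 1338 in heterozygous replicates 1 and 2, and 1223 and 1528 in homozygous replicates 3 and 4. In the low-Meg3 set it was 218 and 405 CPM in wild type replicates 1 and 2, 420 and 425 in heterozygous replicates 3 and 4, and 455 and 517 in homozygous replicates 1 and 2. The members nearest to the division were thus at 1212 and 517 CPM. The log2 difference (high-Meg3 minus low-Meg3 set, with genotype as a term) was 1.68 (SE 0.15), and the difference within wild type, heterozygous and homozygous libraries was 1.96, 1.66 and 1.4995.

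Neat1 lay at 1234, 1545, 1127, 876 and 1117 CPM in the high-Meg3 set, in the library order just given, and at 702, 687, 402, 620, 604 and 550 in the low-Meg3 set. Its log2 difference was 1.02 (SE 0.16). Miat, also called Gomafu, a nuclear RNA of neurons, lay at 339, 394, 310, 275 and 406 CPM against 116, 98.9, 138, 77.5, 145 and 119, a log2 difference of 1.57 (SE 0.16). The sets were wide apart for Miat and close for Neat1, whose nearest libraries were at 876 and 702 CPM. Malat1 did not follow them. It lay between 614 and 1061 CPM in the high-Meg3 set and between 357 and 512 in 5 libraries of the low-Meg3 set, but at 2032 in homozygous replicate 2, which left a log2 difference of 0.28 (SE 0.40).

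**Figure D1:**
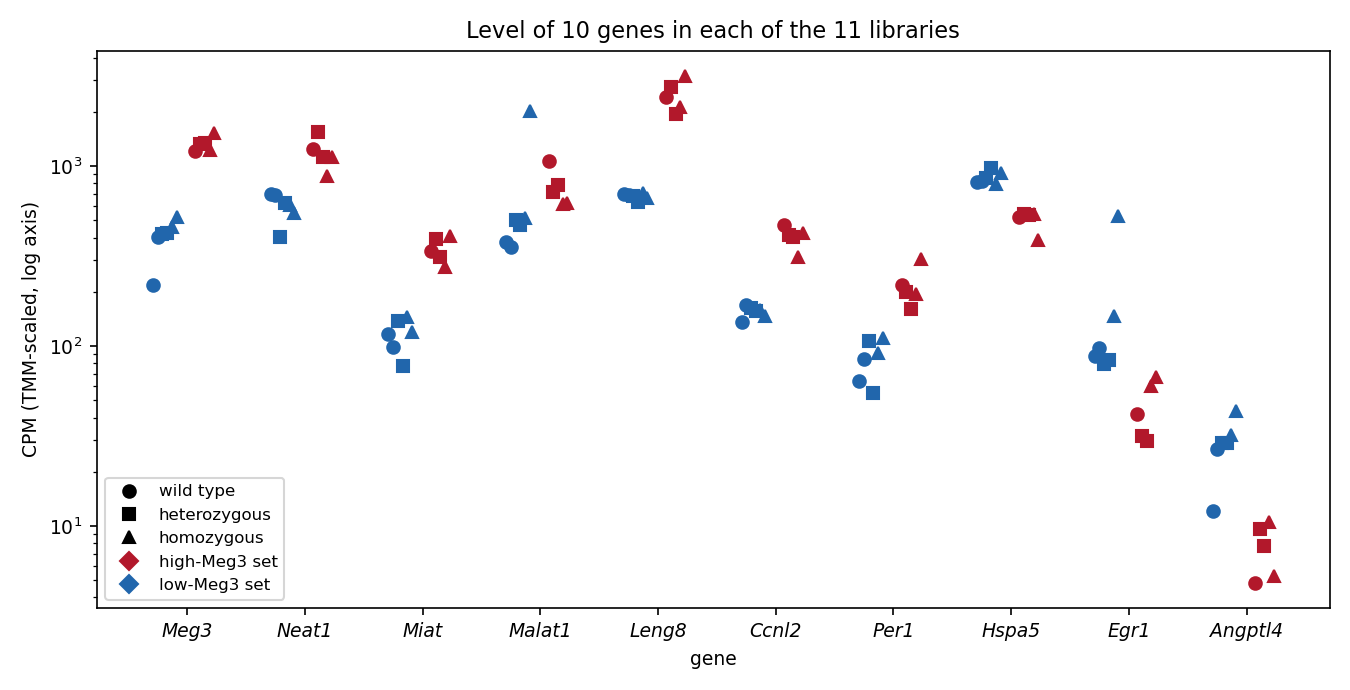
Level of 10 genes (CPM with TMM scaling, log axis) in each of the 11 libraries, coloured by set and with a symbol for each genotype. The sets do not overlap for Meg3, Neat1, Miat, Leng8, Ccnl2, Per1, Hspa5, Egr1 and Angptl4, whereas for Malat1 homozygous replicate 2 of the low-Meg3 set, at 2032 CPM, is the highest of all.

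Over the 16574 genes tested, a gene was called higher or lower where the sets differed by at least 1.5-fold and no library of one set overlapped the other. By this rule 1740 genes were higher in the high-Meg3 set (10.5% of the genes tested) and 766 were lower (4.62%), and the median log2 difference of all genes was −0.01. With library totals in place of TMM scaling the split was 1965 higher and 450 lower. Since the sets were chosen on components of these same genes, the shares are a background for the counts below and nothing more. The first component carried 41.6% of the variance. The same table, fitted with a term for how the set difference varied with genotype, held 0 genes (0%) past an adjusted p of 0.05 (edgeR quasi-likelihood test, 2 terms jointly). The lowest adjusted p was 0.727, 1125 genes had an unadjusted p under 0.05, and only 5 residual degrees of freedom were left.

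A list of 18 long noncoding RNAs held Meg3, Neat1 and Miat, which mark the sets by choice. Of the 15 others 5 were higher and 0 lower, with a median log2 difference of 0.76, and the 5 were Rian, Mirg, Snhg11, Airn and Firre. Firre, an X-linked RNA that organises nuclear chromatin, lay between 403 and 567 CPM in the high-Meg3 set and between 164 and 198 in the low-Meg3 set, with a log2 difference of 1.52 (SE 0.10). Kcnq1ot1, the imprinted antisense RNA, had a log2 difference of 0.22 and was not called.

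Meg3 lies on chromosome 12 (mm10, 109541001 to 109571726) in an imprinted domain, and its neighbours went different ways. The maternally expressed RNAs downstream, Rian (109603940 to 109661716) and Mirg (109729764 to 109749460), were both higher, by 0.76 (SE 0.21) and 1.01 (SE 0.21) on the log2 scale. Rian lay between 117 and 215 CPM in the high-Meg3 set and between 39.8 and 112 in the low-Meg3 set. Dlk1 (109452823 to 109463336), a paternally expressed Notch ligand upstream of Meg3, lay between 45.4 and 125 CPM in one set and 28.9 and 147 in the other and was not called. Dio3 (110279068 to 110281097), a paternally expressed deiodinase, was lower, at 0.706 to 0.816 CPM against 1.33 to 3.05. Begain (109032187 to 109068217), a postsynaptic density protein gene at the upstream edge, was higher by 1.44 (SE 0.22). Outside this domain, the imprinted H19 and Igf2 had log2 differences of −0.20 and −0.09 and were not called. Of 24 imprinted genes 5 were higher (Meg3, Rian, Mirg, Peg3 and Impact) and 1 lower (Dio3), with a median of −0.17. These are 20.8% and 4.17%, against 10.5% and 4.62% of all genes. Meg3 is among them by the choice of the sets, and Rian, Mirg and Dio3 lie in its domain. Outside the domain only Peg3 and Impact of the list were called.

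The genes with the largest differences among those with a mean of at least 10 CPM were mostly protein coding. Leng8, a nuclear protein of mRNA processing, lay at 2409, 2748, 1955, 2115 and 3157 CPM in the high-Meg3 set, and at 697, 693, 676, 631, 704 and 663 in the low-Meg3 set. The 6 libraries of the low-Meg3 set thus stayed within a narrow band, and the log2 difference was 1.87 (SE 0.14). Lmtk3, a membrane kinase, lay between 322 and 553 CPM against 98.0 to 110 (1.94, SE 0.14), and Gigyf1, an adaptor of translational repression, between 321 and 481 against 94.0 to 115 (1.86, SE 0.10). Ager, which encodes the receptor for advanced glycation end products, had the largest log2 difference of them, 2.27 (SE 0.18), at 25.2 to 42.7 against 4.36 to 7.97 CPM. Others of the 12 largest were Tgfbr3l (2.18), the snoRNA host Snhg20 (2.16), Nphs1 (2.09), Gm20605 (1.97), Thpo (1.94), Coro6 (1.91), A930013F10Rik (1.87) and 4930426D05Rik (1.87). Gli1, a transcription factor of Hedgehog signalling, lay at 140 to 234 CPM against 44.9 to 65.5, and the Hedgehog receptor gene Ptch1 differed by 0.74.

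The 12 largest differences in the other direction were Angptl4 (−1.99), Thap2 (−1.89), Fam84a (−1.86), Nr4a1 (−1.76), Zfp60 (−1.75), Slitrk6 (−1.73), Egr1 (−1.72), Ttc30a1 (−1.62), Dnah5 (−1.59), Cldn2 (−1.57), Plet1 (−1.57) and Ehf (−1.56). Angptl4, a secreted inhibitor of lipoprotein lipase, lay between 4.84 and 10.6 CPM in the high-Meg3 set and reached 43.7 in the low-Meg3 set, where wild type replicate 1 was nearest to the other set. Thap2, which encodes a THAP domain protein, was more evenly divided, at 5.94 to 7.95 against 24.5 to 28.7 CPM. Among genes of known regulators that were no part of the 12, Ezh2, the methyltransferase of Polycomb repressive complex 2, lay between 20.7 and 32.5 CPM against 66.8 to 78.8 (−1.39, SE 0.11). Nfe2l2, the transcription factor of the oxidative stress response, lay between 37.9 and 51.3 against 101 to 121 (−1.36, SE 0.09).

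RNA classes differed in how many of their tested genes were higher. Of all genes tested 10.5% were higher and 4.62% lower. Among protein-coding genes, 1448 of 15181 tested were higher and 732 lower. Among antisense transcripts 53 of 199 were higher and 4 lower (median 0.46), among processed transcripts 52 of 167 and 2 (0.42), among lincRNAs 42 of 187 and 4 (0.30), and among transcribed unprocessed pseudogenes 9 of 23 and 0 (0.82). Antisense and overlapping genes share positions with other genes, and the strand setting of the counting is not given in the sources used here, so reads of such pairs may be mixed. These counts and medians cover the genes that passed the filter on low counts. In the order above, the noncoding classes held 532, 278, 915 and 72 symbols before it. A gene that passed because of the high-Meg3 libraries was bound to differ, so the counts are not a result about a class. The lowest medians under the alternatives run were, in the same order, 0.43, 0.35, 0.27 and 0.44. The summed levels over all symbols of a class were 1422 to 1782 against 1205 to 1375 CPM for antisense transcripts, 2779 to 3429 against 1993 to 2308 for processed transcripts and 481 to 661 against 235 to 327 for transcribed unprocessed pseudogenes, and those of lincRNAs overlapped. Among the genes tested, and without ribosomal RNA, long noncoding RNAs together took 1.43% to 1.93% of counts in the high-Meg3 set and 1.12% to 1.42% in the low-Meg3 set, with wild type replicate 3 at the top. Meg3, Neat1 and Miat, which mark the sets by choice, are among these RNAs and among the lincRNAs counted above. Without them the shares were 1.12% to 1.64% against 1.02% to 1.30% and overlapped, and the difference of the means was 0.1005 in place of 0.278 percentage points. Without Xist, which wild type replicate 3 held at 4297 CPM, that library was at 1.48%, against 1.43% to 1.47% in the others of its set. Protein-coding genes took 94.6% to 95.3% against 95.4% to 95.8%. The classes were formed after the values were seen.

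Symbols of microRNA (miRNA) hairpins and small nucleolar RNAs (snoRNAs) were examined apart. In libraries selected for polyA tails such a symbol collects reads of longer RNAs that cross the locus, not the mature small RNA, and most loci lie within a host gene on the same strand. Most symbols had few counts. Of 619 miRNA symbols within an intron 18 passed the filter on low counts, and of 98 such snoRNA symbols 30 did, so a locus that passed because of the high-Meg3 libraries was bound to differ, and counts of calls over the loci that passed are not given. The sum over every symbol, filtered or not, does not depend on this. It lay between 50.03 and 70.2 CPM in the high-Meg3 set and between 23.7 and 31.8 in the low-Meg3 set for the 619 intronic miRNA symbols. For the 98 intronic snoRNA symbols it lay between 69.2 and 116 against 34.9 to 43.3 CPM. Neither pair of ranges overlapped. Over all miRNA symbols, intronic or not, the sums did overlap, at 281 to 312 against 158 to 450 CPM. Over all snoRNA symbols they did not, at 92.1 to 145 against 46.0 to 56.8 CPM.

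Mir3064 and, at the gene Ttll10, Mir200a and Mir429 had reads in every library of both sets, and they were chosen after their values were seen. Their mature miRNAs are shown for identity, from RefSeq (GRCm38.p6) and with the seed, bases 2 to 8, in capitals, together with miR-200b-3p of the same cluster, which shares its seed with miR-429-3p.
mmu-miR-3064-3p: uGCCACACugcaacaccuuaca
mmu-miR-200a-3p: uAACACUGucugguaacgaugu
mmu-miR-200b-3p: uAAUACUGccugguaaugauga
mmu-miR-429-3p: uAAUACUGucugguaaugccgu

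The Mir3064 locus (chr11:106782693-106782759, minus strand) lies within the RNA helicase gene Ddx5 on the same strand and touches an annotated exon. It lay at 18.4, 7.48, 13.6, 7.48 and 4.56 CPM in the high-Meg3 set and at 1.96 to 4.49 in the low-Meg3 set (log2 difference 1.67, SE 0.26), so that homozygous replicate 4 was barely above the low-Meg3 set. Ddx5 itself differed by 0.17 (SE 0.12). Mir429 (chr4:156053905-156053987, minus strand) lies within the tubulin glycylase gene Ttll10 and touches an annotated exon. It lay at 8.32 to 13.8 CPM against 3.96 to 6.39 (1.13, SE 0.19). Mir200a (chr4:156054896-156054985, minus strand), in an intron of Ttll10, lay at 2.82 to 5.03 against 1.07 to 2.27 CPM (1.05, SE 0.24). Ttll10 itself lay at 44.7 to 62.1 against 27.4 to 36.0 CPM (0.68, SE 0.11).

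Genes of splicing and the nuclear speckles were higher in 19 of 36 cases and lower in 0, with a median of 0.62 (−0.01 over all genes). The summed level of the list lay between 12039 and 16607 CPM in the high-Meg3 set, with wild type replicate 3 at the top, and between 8423 and 9346 in the low-Meg3 set. Scaffold proteins of the speckles were among them. Son lay between 801 and 1273 CPM against 441 to 540 (0.98, SE 0.11), and Srrm2 differed by 0.85. Cyclin L2 (Ccnl2), a partner of the kinases that phosphorylate splicing factors, lay at 311 to 470 against 136 to 169 CPM (1.39, SE 0.11), and Rsrp1 differed by 1.33. Of the CDC-like kinases that phosphorylate SR proteins, Clk1, Clk2 and Clk4 were higher, Clk1 by 0.95. Of the SR proteins, Srsf3, Srsf5, Srsf6 and Srsf11 were higher and Srsf1, Srsf2, Srsf4 and Srsf7 were not called. Of the paralogous helicases Ddx17 was higher (0.999) and Ddx5 was not called (0.17). The other higher genes were Pnisr, Luc7l, Luc7l3, Prpf38b, Acin1, Ccnl1 and Nktr.

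SnoRNA host genes, whose spliced transcripts are short-lived in the cytoplasm, were higher in 5 of 12 cases (Snhg6, Snhg7, Snhg12, Snhg17 and Snhg20) and lower in 0, with a median of 0.49. Their sum lay between 614 and 731 CPM against 400.3 to 521. Snhg20 lay between 56.4 and 95.7 CPM against 13.6 to 21.4, whereas Gas5 differed by 0.31 and was not called.

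Of 84 genes for cytoplasmic ribosomal proteins 26 were higher and 1 (Rpl7l1) lower, with a median of 0.46, and the calls sat at low levels. Among the 37 genes with a mean under 20 CPM, 19 were higher and 0 lower (median 0.78), while among the 47 at or above 20 CPM 7 were higher and 1 lower (0.23). Rpl9 lay between 9.02 and 14.5 CPM against 3.06 to 4.64 (1.52), and Rplp0, a protein of the ribosomal stalk, had −0.03. Ribosomal protein genes have near-identical pseudogene copies, and how reads with several positions were treated is not given in the sources used here, so a level of a few CPM for such a gene is uncertain. The division at 20 CPM was made after the values were seen. Nuclear-encoded respiratory chain genes had 9 higher and 0 lower of 80, a share near that of all genes, and a median of 0.17 that was 0.10 without heterozygous replicate 3 and 0.30 without heterozygous replicate 4. Proteasome genes had 0 calls of 37, and translation factor genes 0 of 16, and the medians of both moved by more than 1.5 times when 1 library was left out.

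Genes of the circadian clock were higher in 8 of 18 cases (among them Per1, Per2, Cry2, Nr1d1, Tef, Ciart and Bhlhe41) and lower in 0, with a median of 0.72. Their sum lay between 1253 and 1582 CPM in the high-Meg3 set and between 828 and 932 in the low-Meg3 set. Per1, a repressor in the core loop, lay at 217, 198, 160, 193 and 304 CPM against 63.8, 84.3, 106, 54.7, 91.8 and 111 (1.31, SE 0.18). Per1 was thus highest in homozygous replicate 4 and did not overlap. Nr1d1, the nuclear receptor that represses Bmal1, lay at 63.6 to 170 against 32.6 to 55.6 CPM, and its difference within wild type libraries was 0.24 against 2.05 within homozygous ones. Ciart, a further repressor of the clock, differed by 1.63, Per2 by 1.03 and Cry2 by 0.86. Dbp (0.996) and Per3 (1.06) had differences of like size, but their sets overlapped.

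The clock factors CLOCK and BMAL1 bind the E-box, and 5 of 15 clock genes with a promoter in the RefSeq table (Per1, Cry1, Tef, Ciart and Bhlhe41) held its letters CACGTG, searched on both strands between 250 bases before and 50 after the start, against 10.7% of all 12458 promoters. The promoters of Per1 and Ciart (GRCm38.p6, 5′ to 3′ along the gene) are shown because they hold 1 and 3 E-boxes, given in capitals, and belong to genes with large differences. A match is only a run of letters. Among all genes called higher 9.83% of promoters held an E-box, and among those called lower 12.1%.
Per1 (chr11:69098699-69098998, plus strand): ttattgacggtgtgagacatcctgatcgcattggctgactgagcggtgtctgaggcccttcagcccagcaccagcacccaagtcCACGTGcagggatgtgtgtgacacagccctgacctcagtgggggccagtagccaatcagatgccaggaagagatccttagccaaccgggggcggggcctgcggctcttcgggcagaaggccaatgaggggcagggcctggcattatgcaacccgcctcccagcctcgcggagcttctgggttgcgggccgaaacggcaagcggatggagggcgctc
Ciart (chr3:95882179-95882478, minus strand): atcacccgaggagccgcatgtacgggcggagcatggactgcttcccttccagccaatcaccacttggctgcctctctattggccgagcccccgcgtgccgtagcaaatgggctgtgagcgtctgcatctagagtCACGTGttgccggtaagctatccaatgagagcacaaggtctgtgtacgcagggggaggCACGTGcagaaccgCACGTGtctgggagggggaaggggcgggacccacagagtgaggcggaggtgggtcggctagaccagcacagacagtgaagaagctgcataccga

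Chaperone genes were among those lower in the high-Meg3 set. Of 16 genes of the unfolded protein response 4 were lower (Hspa5, Hsp90b1, Pdia3 and Pdia4) and 0 higher, with a median of −0.34 and a sum between 3809 and 4599 CPM against 5417 to 6576. Hspa5, which encodes BiP, the chief chaperone of the endoplasmic reticulum (ER), lay at 518, 542, 535, 539 and 386 CPM in the high-Meg3 set and at 819, 821, 862, 972, 790 and 914 in the low-Meg3 set. No libraries overlapped, and the log2 difference was −0.78 (SE 0.11). Hsp90b1, the ER member of the Hsp90 family, differed by −0.63 and Pdia4, a disulfide isomerase, by −0.64. The stress-induced regulators were not called, with Ddit3 at −0.12, Xbp1 at −0.22, Atf4 at 0.14 and Herpud1 at −0.14. The 4 lower genes are thus ER chaperones and disulfide isomerases.

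Of 15 heat shock genes 6 were lower (Hspa1b, Hspa8, Hsph1, Hsp90aa1, Hspd1 and Chordc1) and 0 higher, with a median of −0.47. The sum lay between 2167 and 2919 CPM against 2959 to 3493, so that the sets were parted by little. Hspa8, the constitutive Hsp70 of the cytosol, lay at 194 to 288 against 289 to 461 CPM (−0.65, SE 0.16). Its difference was −1.09 within wild type and −0.23 within homozygous libraries. Hsph1, an exchange factor of Hsp70, lay at 42.3 to 48.5 against 68.0 to 94.4 (−0.80, SE 0.09), and Hspd1, the mitochondrial chaperonin, differed by −0.65. Hsp90ab1 was not called (−0.28).

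The promoters of Hspd1, Hspa5 and Hsp90b1 show the elements of the 2 responses. The heat shock element (GAA, TTC and GAA, each parted by 2 bases) was found in 4 of 11 heat shock genes (Hsph1, Hspd1, Hspe1 and Chordc1) and 0.562% of all promoters. The ER stress response element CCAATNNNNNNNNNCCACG was found in 5 of 15 genes of the unfolded protein response (Hspa5, Hsp90b1, Pdia6, Calr and Creld2) and 0.169% of all. Capitals mark the elements, of which those of Hspd1 overlap. Among all genes called higher 0.468% of promoters held the heat shock element and 0.156% the ER stress response element, and among those called lower 0.874% and 0.699%.
Hspd1 (chr1:55087883-55088182, minus strand): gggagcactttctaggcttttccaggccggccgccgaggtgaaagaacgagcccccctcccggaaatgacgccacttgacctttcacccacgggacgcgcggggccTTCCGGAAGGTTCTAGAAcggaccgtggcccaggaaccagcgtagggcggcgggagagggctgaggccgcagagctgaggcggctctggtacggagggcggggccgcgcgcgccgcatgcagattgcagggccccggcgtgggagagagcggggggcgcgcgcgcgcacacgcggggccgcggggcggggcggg
Hspa5 (chr2:34771840-34772139, plus strand): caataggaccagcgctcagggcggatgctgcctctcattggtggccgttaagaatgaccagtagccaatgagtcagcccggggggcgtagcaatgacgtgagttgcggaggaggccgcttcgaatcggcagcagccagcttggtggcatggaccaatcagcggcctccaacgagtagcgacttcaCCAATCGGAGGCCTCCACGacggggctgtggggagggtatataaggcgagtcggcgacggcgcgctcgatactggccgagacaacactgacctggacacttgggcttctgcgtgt
Hsp90b1 (chr10:86705395-86705694, minus strand): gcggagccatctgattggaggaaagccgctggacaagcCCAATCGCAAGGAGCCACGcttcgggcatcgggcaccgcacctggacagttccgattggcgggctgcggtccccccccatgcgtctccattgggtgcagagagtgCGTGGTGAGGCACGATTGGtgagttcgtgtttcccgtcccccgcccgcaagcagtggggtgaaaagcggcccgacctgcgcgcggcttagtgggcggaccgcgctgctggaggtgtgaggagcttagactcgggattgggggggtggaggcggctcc

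Immediate early genes, which neurons and other cells switch on within minutes of a stimulus, were lower in 4 of 30 cases (Egr1, Egr2, Nr4a1 and Btg2) and higher in 0, with a median of −0.57. Egr1 lay at 41.9, 31.5, 29.5, 59.8 and 66.8 CPM in the high-Meg3 set and at 87.8, 97.8, 78.8, 83.1, 147 and 529 in the low-Meg3 set (−1.72, SE 0.30). Nr4a1, an orphan nuclear receptor, lay at 22.0, 49.97, 30.5, 40.4 and 30.0 against 72.7, 64.1, 76.1, 72.2, 125 and 334 (−1.76, SE 0.33). Homozygous replicate 2 was the highest library for both genes and for the sum of the list (5033 CPM, against 1467 to 2291 in the others of its set). Without it the median was −0.32, and the sums of the sets overlapped, at 1279 to 1866 in the high-Meg3 set. Fos (−1.80) had overlapping sets, and Jun (−0.19) and Dusp1 (−0.74) were not called either. The cyclic AMP response element TGACGTCA stood in 3 of 23 promoters of the list (Dusp1, Btg2 and Maff) and 3.24% of all, with 3.198% among genes called higher and 4.37% among those called lower.

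Marker genes of the cell types of the MOE were counted in the same way. Because tissue was measured in bulk, fewer cells of a type and less RNA in each cell cannot be told apart. Of 15 markers of mature OSNs 1 was higher (Slc24a4) and 0 lower. Of 9 markers of immature OSNs 1 was higher (Gng8) and 0 lower, and of 8 markers of basal precursors 0 were called. The medians of these 3 lists moved by more than 1.5 times when 1 library was left out and are not given. Of 1125 odorant receptor genes 568 passed the filter on low counts. Of these, 28 were higher (4.93%) and 2 lower (0.352%), both below the 10.5% and 4.62% of all genes. Their median was 0.23. The sum over all 1125 lay between 1084 and 1355 CPM against 799 to 1257, and the sets overlapped. Of 8 sustentacular markers 1 was higher (Cbr2) and 1 lower (Ermn), with a median of 0.37 that was 0.58 without heterozygous replicate 4.

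Markers of glands, basal cells and cilia had lower medians. Bowman's gland genes had the lowest median of the lists with at least 5 genes (−1.01), but 0 of 8 were called, since libraries differed widely within each set. Bpifb9b, a secreted lipid-binding protein of the nasal mucus, ranged from 2979 to 9302 CPM in the high-Meg3 set and from 6676 to 25189 in the low-Meg3 set. Horizontal basal cells, the reserve stem cells of the epithelium, had a median of −0.82, and 1 of 7 markers was lower, Krt14. Of 15 genes of motile cilia 4 were lower (Dnah5, Dnah9, Rsph4a and Dynlrb2) and 0 higher, with a median of −0.53 and a sum between 832 and 1039 CPM against 1085 to 1565. Dnah5, a heavy chain of the outer dynein arm, lay at 40.7 to 69.3 against 136 to 229 CPM (−1.59, SE 0.17), and it differed by −1.16, −1.45 and −2.03 within wild type, heterozygous and homozygous libraries. Foxi1, the transcription factor of ionocytes, lay at 9.96 to 14.2 against 23.8 to 44.5 CPM, the 1 called gene of 7 in the list of microvillar cells and ionocytes.

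**Figure D2:**
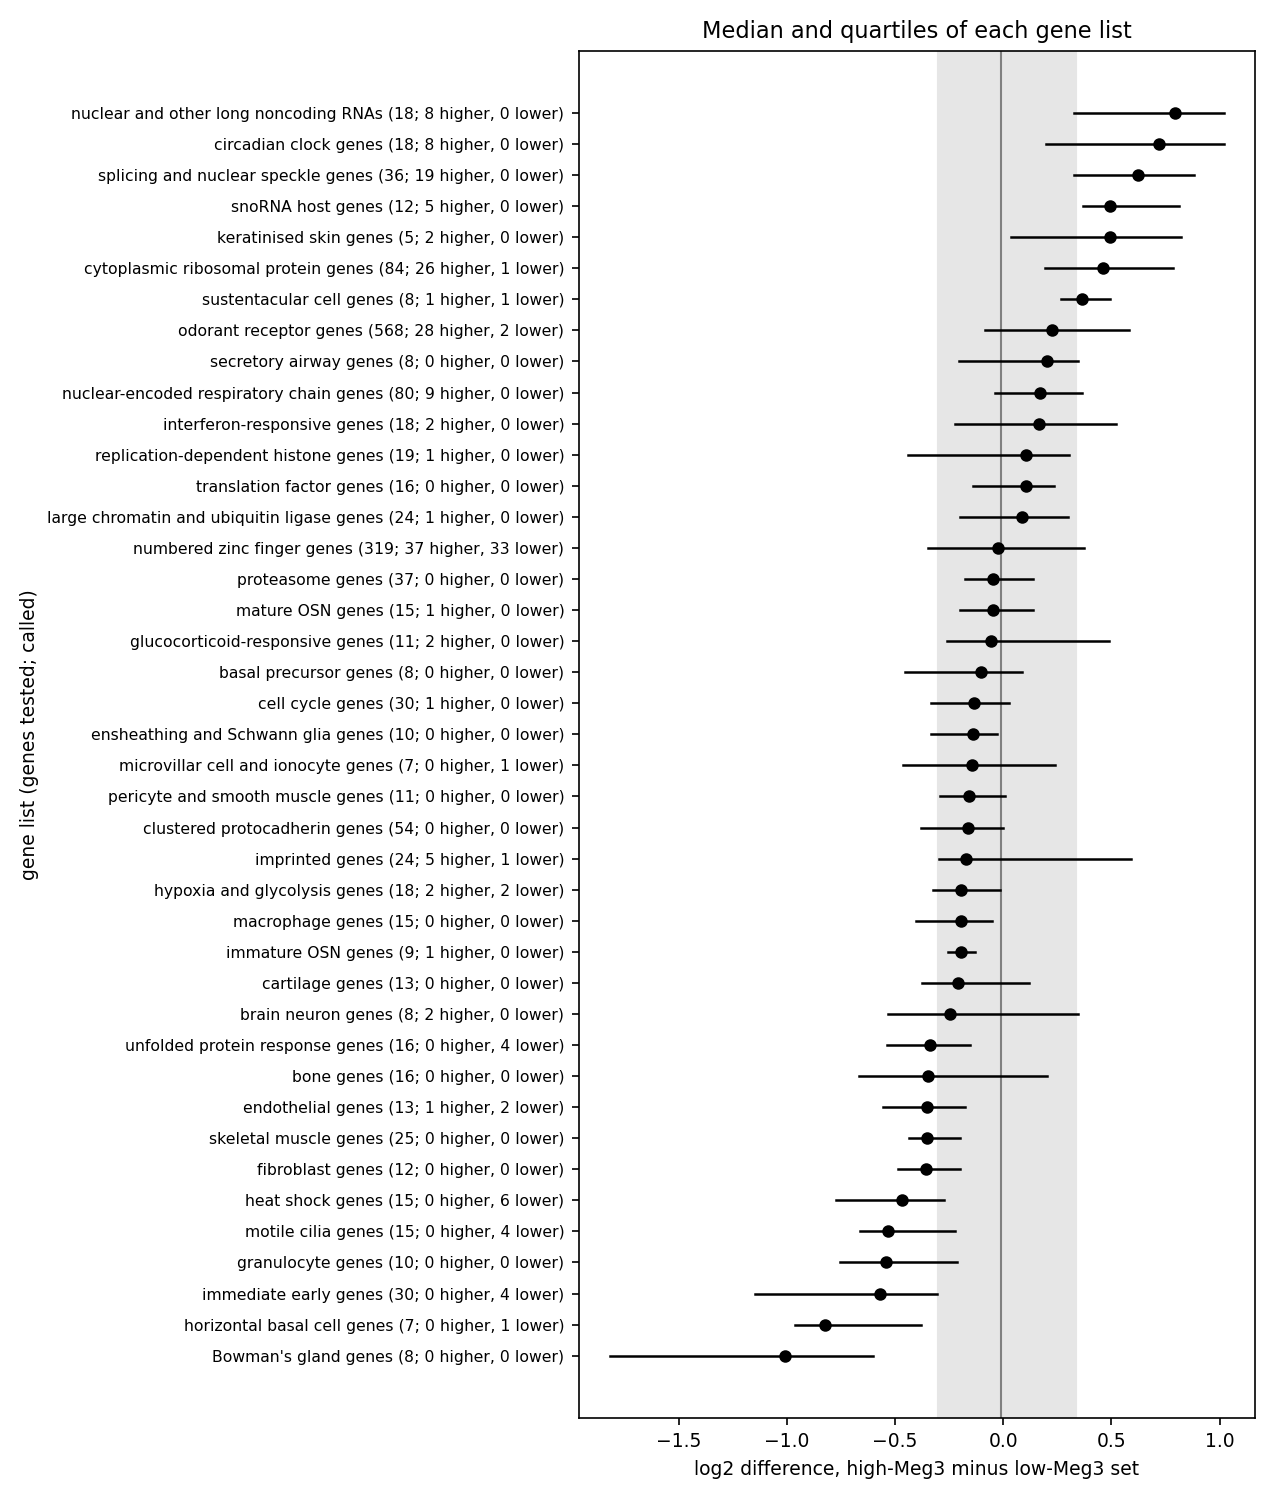
Median (points) and quartiles (lines) of the log2 difference, high-Meg3 minus low-Meg3 set, for each gene list with at least 5 genes tested other than the sex-linked genes, with the quartiles of all genes in grey. Of the lists plotted, the long noncoding RNAs (0.79, the 3 markers included), the clock genes (0.72) and the splicing genes (0.62) are at the top, and Bowman's gland genes (−1.01), with 0 genes called, are at the bottom.

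Endothelial markers went both ways. Robo4, a guidance receptor of vessels, lay at 51.9 to 70.6 against 18.5 to 28.8 CPM (1.30, SE 0.11), whereas Cdh5, the vessel cadherin, lay at 49.97 to 74.99 against 78.02 to 118 (−0.75), and Pecam1 was lower as well. The list of 13 had a median of −0.35. Fibroblast (12 genes, −0.36), granulocyte (10, −0.54), macrophage (15), cartilage (13) and bone genes (16) held 0 calls each. Skeletal muscle genes (25) also held 0 calls. The sum of the muscle genes varied from 63.5 to 1129 CPM within the high-Meg3 set and from 41.0 to 2298 within the low-Meg3 set, and the sets overlapped. Of the erythrocyte list the globins Hba-a1, Hba-a2, Hbb-bs and Hbb-bt were listed at 0 in every library, and the sum of the others lay between 81.4 and 90.2 CPM against 91.6 to 101. Of 8 brain neuron markers tested 2 were higher (Gad2, at 1.33, and Camk2a) and 0 lower, but 5 had values below 0, Dlx1 the lowest at −0.68. Their sum lay between 70.5 and 87.1 CPM against 35.4 to 66.9. Of 4 brain glia markers 1 was lower, Aqp4 (−0.84), while Gfap had 1.23 and was not called, and the sum lay between 260.0 and 277 against 307 to 413. The medians of the macrophage, cartilage, bone, muscle, brain neuron and brain glia lists moved by more than 1.5 times when 1 library was left out and are not given. The part of these cell types in the lists above was not tested.

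**Figure D3:**
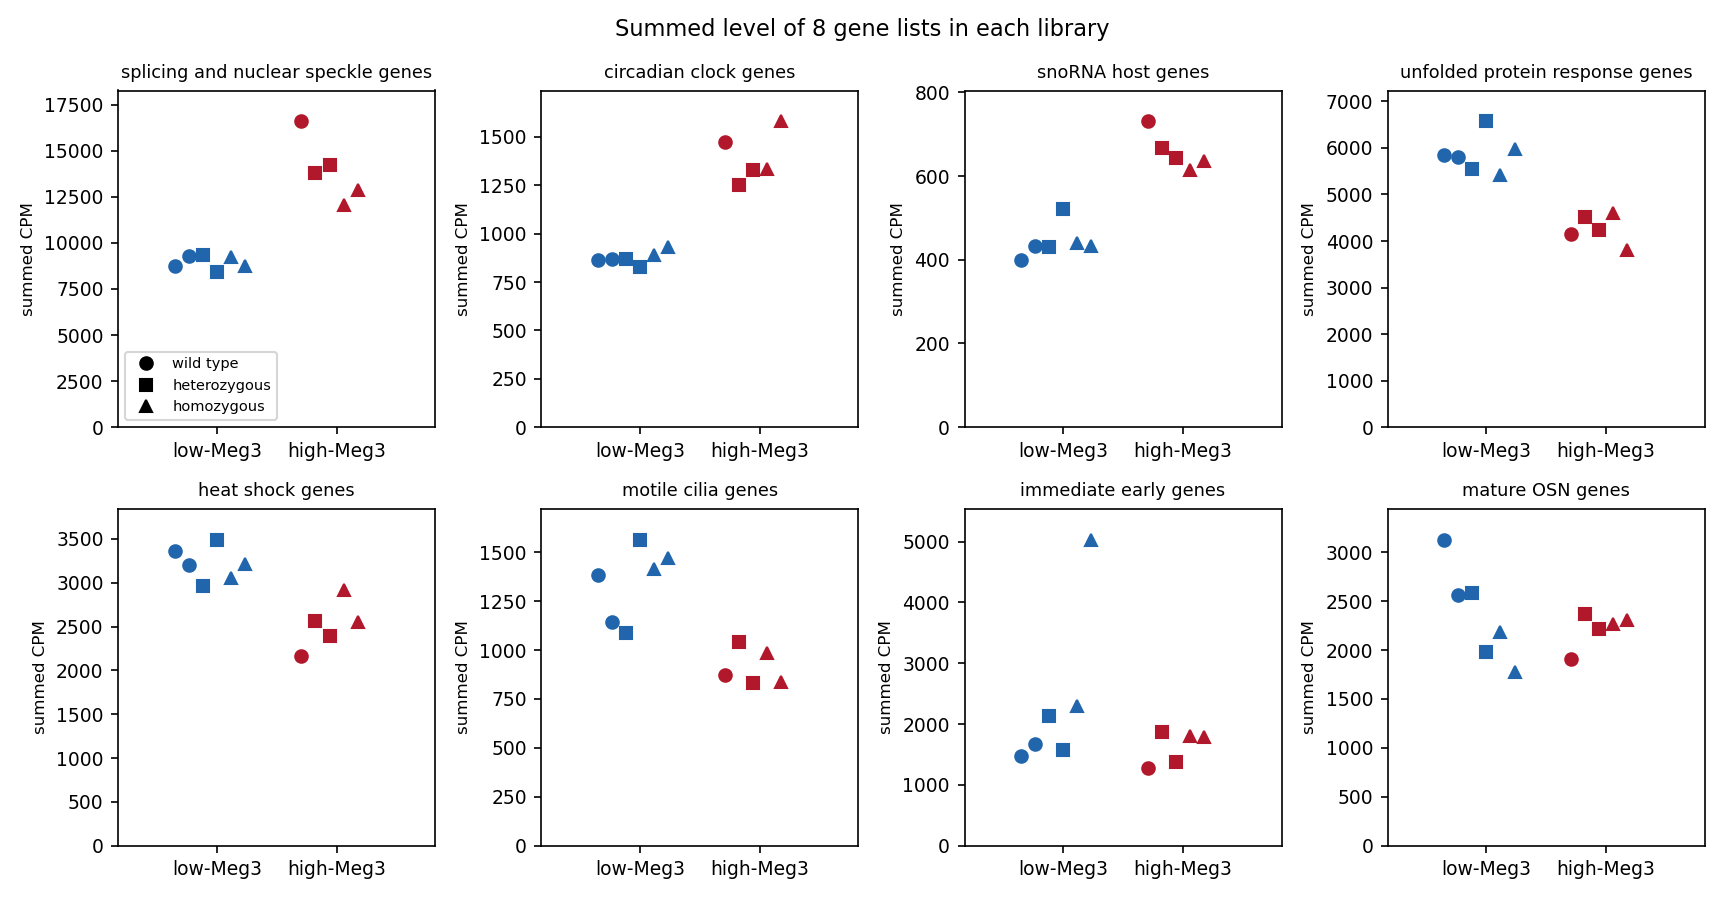
Summed level (CPM, axes from 0) of 8 gene lists in each library, by set and genotype. The sets are apart for the splicing, clock, snoRNA host, unfolded protein response, heat shock and motile cilia lists and overlap for the immediate early genes, where homozygous replicate 2 reaches 5033 CPM, and for the mature OSN markers.

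Of 30 cell cycle genes 1 was higher, of 18 hypoxia and glycolysis genes 2 were higher (Vegfa and Gapdh) and 2 lower (Ldha and Tpi1), of 11 glucocorticoid-responsive genes 2 were higher (Per1 and Map3k6), and of 18 interferon-responsive genes 2 were higher (Mx1 and Xaf1). Of 24 genes for large chromatin proteins and ubiquitin ligases 1 was higher, the Mediator subunit Med12 (1.103, at 247 to 386 against 136 to 153 CPM). Of 54 clustered protocadherins 0 were called, of 19 histone genes 1 was higher, and of 319 numbered zinc finger genes 37 (11.6%) were higher and 33 (10.3%) lower, against 10.5% and 4.62% of all genes.

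The set difference also went with the composition and structure of genes. Among the 15975 genes matched to the annotation, the median log2 difference was −0.15 in the quintile of genes with the lowest transcript GC content, −0.10, −0.04 and 0.04 in the next, and 0.18 in the quintile with the highest. The share called higher was 4.13% in the lowest and 18.8% in the highest quintile, and the share called lower 8.29% and 1.35%. Spearman's rho across these genes, which share the 11 libraries, was 0.236. Gene span went the other way, with medians from 0.10 in the shortest to −0.12 in the longest quintile (rho −0.173). Leaving out 1 library moved the difference between the highest and the lowest GC quintile from 0.33 to 0.52 without wild type replicate 3 and to 0.21 without homozygous replicate 4. Transcript length and the number of exons went with it less (rho −0.0826 and 0.0456), and the length difference between the outer quintiles, −0.11, was −0.06 without heterozygous replicate 3 and −0.18 without heterozygous replicate 4. With each library centred within bins of GC content the splicing list had a median of 0.72, the clock list 0.66 and the unfolded protein response list −0.30, and 1531 genes were higher and 767 lower.

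Genes for which the annotation holds a transcript with a retained intron (8199) had a median of 0.03 and 12.3% were higher, against −0.06 and 8.49% for the 7776 without one. In the quintile with the highest GC content the medians were 0.28 with and 0.07 without such a transcript, and the shares called higher 24.2% and 12.6%. The median also varied with the distance to the nearest gene upstream on the same strand. For protein-coding genes it was 0.07 where that gene overlapped, 0.18 where its end lay within 1000 bases (551 genes, 18.7% higher), 0.08 up to 5000 bases, 0.01 up to 20000 and −0.09 beyond (8257 genes, 6.95% higher). Genes with a near neighbour are also richer in GC, with a median of 55.1% within 1000 bases and 48.8% beyond 20000. These properties were examined after the differences were known.

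**Figure D4:**
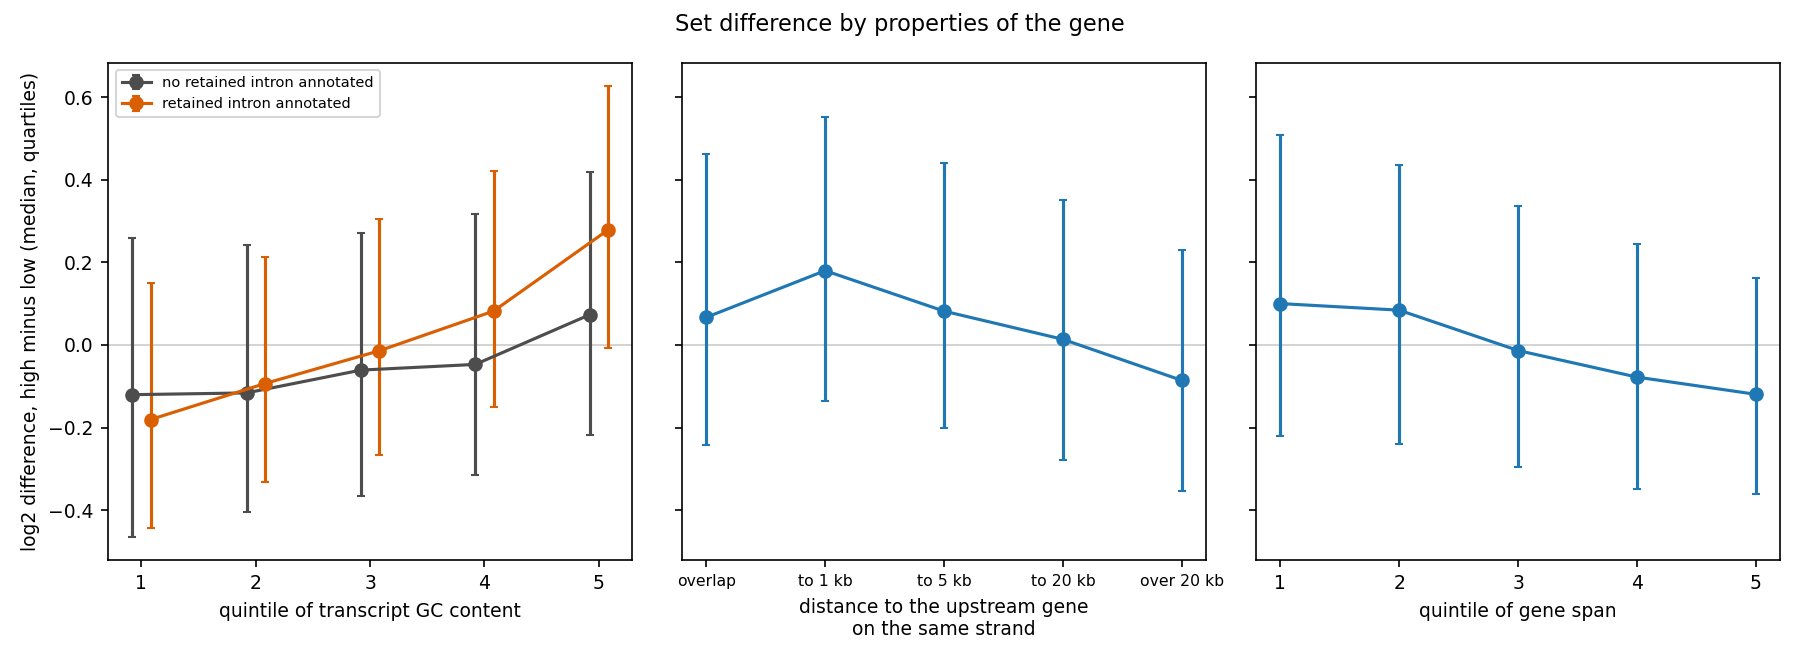
Median and quartiles of the log2 difference (high-Meg3 minus low-Meg3 set) by quintiles of transcript GC content, separately for genes with and without an annotated retained intron, by distance to the upstream gene on the same strand, and by quintiles of gene span. The median is highest, 0.28, for genes of the highest quintile of GC content with a retained intron.

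Both sets held all genotypes, and both held libraries with and without Xist. They comprised 1, 2 and 2 libraries against 2, 2 and 2 of the 3 genotypes (two-sided Fisher's exact test, p = 1). Xist, the RNA that coats the inactive X chromosome in females, was above 100 CPM in 1 library of the high-Meg3 set (4297 CPM) and 4 of the low-Meg3 set (1327 to 1684), and at most 1.70 in the others. With the presence of Xist as a further term, 1737 genes were higher and 781 lower.

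Depth differed between the sets. The mean total was 12736478 counts (SD 1270845, n = 5) in the high-Meg3 set and 10907023 (SD 1180596, n = 6) in the low-Meg3 set, a difference of 1829455 (two-sided exact permutation test, p = 0.0411). Without Rn45s, the ribosomal RNA symbol that took 25.8% of the counts of homozygous replicate 2, the difference was 2306390 (the same exact test, p = 0.0173). Levels are scaled to these totals, so the part of depth in the differences above was not tested.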

How the data were processed

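Per the labels, reads of 11 libraries of whole MOE (polyA selection, directional kit) were trimmed with Trimmomatic (0.36), aligned to mm10 with HISAT2 (2.1.0) and counted per gene with featureCounts (Subread 1.6.2). The authors deposited whole-number read counts per gene (24421 symbols) and a normalised signal per gene (23129 symbols), each with 0 columns of no sample, and name DESeq2 (1.20.0) for it. Which annotation and strand setting were used, and how multiply aligned reads were treated, is not given in the sources used here. The counts were used throughout, and the normalised signal only to define an alternative gene set. Symbols turned into dates by a spreadsheet were kept as deposited, and 0 symbols of mitochondrially encoded genes were in the table.

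Counts were fitted with edgeR (4.0.16) in R (4.3.3) after filterByExpr by genotype and TMM scaling, in a quasi-likelihood model of genotype and set over all 11 libraries, which gave log2 differences with standard errors for 16574 genes. As the sets were chosen on these values, no p-value is given for them. The interaction of set and genotype was tested with the quasi-likelihood F-test (Benjamini-Hochberg adjustment over all genes), and total counts with an exact permutation test. Gene properties came from GENCODE M21 (15975 symbols matched), miRNAs and promoters from RefSeq (GRCm38.p6). The model was tested on simulated data. The members and lists were chosen with earlier results of these data known, and other choices are named where they were made after values were seen. Genes named were Meg3, Neat1 and Miat, the 12 largest differences in each direction among genes of at least 10 CPM without overlap, and up to 4 of each list (the 2 most abundant and the 2 most different). Any other gene was named after its values were seen, and a few genes that these rules would name are not reported here. Depth was 9239866 to 14632525 counts per library. Nothing says that libraries came from separate animals, so errors measure the spread between these libraries. No 2 libraries of the same genotype agreed within sampling noise (lowest chi-square per gene 17.8), and libraries of different genotypes were not compared in this way. Alternatives were RLE scaling, library totals, no filter, DESeq2 (1.42.0), no genotype term, the replicate block, the genes of the normalised table, a 2-fold threshold and each library left out. Leaving out Rn45s, centring by GC content and a term for Xist were added after seeing the data.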

Additional observations from a re-analysis of the deposited data

Results flagged for a closer look

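Of 76 values examined within sets of 5 or 6 libraries, 10 had 1 library that stood apart from the others of its set, and chance gives about 1 such library in 20 values. Homozygous replicate 2 of the low-Meg3 set accounted for 6 of them. Rn45s took 25.8% of its counts, against 0.0848% to 0.285% in the others of the set. Lars2, the gene of the mitochondrial leucyl-tRNA synthetase, lay at 9821 CPM against 357 to 585, and Malat1 at 2032 against 357 to 512. All miRNA symbols, filtered or not, took 0.0459% of its counts without Rn45s, against 0.0162% to 0.0204%. The immediate early genes Egr1 and Nr4a1 lay at 529 CPM against 78.8 to 147 and at 334 against 64.1 to 125.

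In heterozygous replicate 4 of the low-Meg3 set the skeletal muscle genes summed to 2298 CPM, against 41.0 to 616 in the others, and Snhg20 lay at 21.4 CPM against 13.6 to 15.7. In the high-Meg3 set wild type replicate 3 had 1.95% of its counts in long noncoding RNAs, against 1.44% to 1.49% (over all symbols, filtered or not, and without Rn45s). Without Xist, which lay at 4297 CPM in that library and at most 1.70 in the others of the set, it was at 1.502% against 1.44% to 1.49%. Homozygous replicate 4 had 19421 genes detected against 19745 to 19828. The value of Snhg20 stayed under the lowest of the high-Meg3 set, 56.4 CPM.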

How the results depend on the processing

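The counts of 1740 genes higher and 766 lower changed most with the threshold and the scaling. With a 2-fold threshold they were 664 and 153, and with library totals in place of TMM scaling 450 genes were lower. Leaving out each library in turn gave 1652 to 1935 higher and 678 to 1030 lower genes. The interaction of set and genotype gave 0 to 6 genes when a library was left out, with 6 only without homozygous replicate 1 and 0 under the other alternatives that were run. The difference in total counts was 2306390 without Rn45s. It could not be computed without mitochondrial genes, since the table has none. The interaction could not be fitted with the replicate block or without wild type replicate 3. Correlations between libraries of equal replicate number ran from −0.58 to 0.42. They were positive where both libraries were of the same set and negative where they were not. They thus follow the sets and cannot decide whether the numbers pair libraries. The fit with the replicate block gave 1768 higher and 777 lower genes. No called value changed sign. Of 4187 recomputed values of 200 named genes 153 moved by more than the standard error of the main fit, and 72 changed sign, all in genes that were not called. Of 1407 list medians 128 moved, judged against the SD of the medians within genotypes, and 56 changed sign. Depth limits the small RNA loci, most of which stand for few reads.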

Other observations

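Zinc finger genes with a number in their symbol differed by chromosome. On chromosome 13, 10 of the 29 tested were lower in the high-Meg3 set and 2 higher, with a median log2 difference of −0.70 (−0.59 after centring by GC content). On chromosome 7 the median of 83 such genes was −0.04, with 8 higher and 13 lower, and on chromosome 17 it was 0.02 for 38 genes, with 6 higher and 0 lower. The largest differences on chromosome 13 were those of Zfp72 (−2.52), Zfp493 (−2.47), Zfp366 (−1.90) and Zfp65 (−1.68). These 4 have a mean under 10 CPM, counts of zinc finger genes that resemble each other are uncertain, and the genes were grouped by chromosome after the values were seen.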
